A study of Mus musculus with 100 samples.

Results

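The injury response of C57BL/6 knee joints at 1-day post-injury was taken as the difference between 5 injured joints and 5 uninjured contralateral joints, which made up 10 of the 100 libraries of the series. The joints were chosen by strain, time and joint only, and all 17310 genes of the count table that passed the filter were tested. Right knees of 10 weeks old C57BL/6 mice received 1 tibial compressive overload of 10 to 12 N, which ruptures the anterior cruciate ligament and starts post-traumatic osteoarthritis. The mice were of the substrain C57BL/6J. The uninjured contralateral joint came from mice that had been through the same anaesthesia and pain relief, so it was a joint of an injured animal and not of an untreated one. Whole joints were taken, with cartilage, bone, marrow, synovium, ligament and traces of muscle, and poly(A)+ RNA was sequenced. Further libraries were used for comparison: 4 C57BL/6 joints at 0-day (before injury), injured and contralateral joints of MRL/MpJ and of STR/ort at 1-day (5 libraries each), and those of C57BL/6 at 1-week (5 each). STR/ort is an inbred mouse that develops osteoarthritis without injury, and MRL/MpJ is known for its capacity to heal wounds. The labels do not say which 2 joints came from the same mouse, so p-values measure the spread between joints.

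In a torn joint the first day is a phase of inflammation and early wound repair. Resident cells of the synovium, the thin membrane that lines the joint, release chemokines, which are small proteins that draw leukocytes out of the blood. CC chemokines such as CCL2 recruit monocytes, which become macrophages, and CXC chemokines such as CXCL1 recruit neutrophils. Cytokines of the IL-6 family signal through the shared receptor gp130, and fibroblasts begin to secrete a provisional matrix of fibronectin, periostin, hyaluronan and type III collagen. Matrix metalloproteinases and ADAMTS enzymes cut collagen and aggrecan, the proteoglycan of cartilage, and tissue inhibitors of metalloproteinases (TIMPs) hold them back.

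The deposited gene counts summed to 7556012 to 12940434 reads per injured library and 9374169 to 20986027 per uninjured library. The first principal component, with 31.2% of the variance, separated the injured from the uninjured joints. The second component, with 13.6% of the variance, had uninjured replicate 1 and injured replicate 3 at one end and uninjured replicate 4, the library with the most reads, at the other. Uninjured replicate 1 had a summed level of 14 fast muscle genes of 110682 CPM (counts of a gene per 1000000 counts of the library, after scaling by the trimmed mean of M-values, TMM), against 47919.7 to 65866 in the other uninjured joints. Injured replicate 3 had a summed level of 20 cartilage genes of 2327 CPM, against 5043 to 6575 in the other injured joints. The defining genes of a knee joint were present in every library: Col2a1 of cartilage at 577 to 2458 CPM in injured and 1915 to 2717 in uninjured joints, Prg4 of synovial lining and cartilage surface at 2809 to 4074 and 1629 to 2249.8, and Myh4 of fast muscle at 11506 to 19298 and 14764 to 37359.9. Genes of marrow cells were present as well. The sum over 14 neutrophil genes was 11070.5 to 14113 CPM in injured and 15903 to 19686 in uninjured joints, with all 14 log2 fold changes below 0 and none past both thresholds. The sums over 8 erythroid genes overlapped, at 2268 to 3698 and 3115 to 4749.6 CPM, as did those over 12 genes of B cells and plasma cells, at 252 to 324 and 299 to 461 CPM. In such bulk samples fewer cells of a type and less RNA per cell cannot be told apart.

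At 1-day post-injury 970 of the 17310 genes tested (5.60%) differed between injured and uninjured contralateral joints by an adjusted p below 0.05 and more than 1.5-fold in edgeR's quasi-likelihood test, and "upregulated" and "downregulated" below mean that both thresholds were passed. Of these, 738 genes (4.26% of those tested) were upregulated in the injured joints and 232 (1.34%) were downregulated. Without injured replicate 4 the counts were 561 and 146. Scaling the libraries to the summed counts of 25 housekeeping genes instead gave 628 upregulated and 330 downregulated genes, 65.6% upregulated against 76.1%. The median change was 1.92-fold among upregulated and 1.74-fold among downregulated genes. More than 2-fold changes were seen in 332 upregulated and 73 downregulated genes, and more than 8-fold changes in 18 and 4. The 5 injured joints lay above all 5 uninjured joints in 569 of the 738 upregulated genes, where 6.92% of all genes tested showed that separation. They lay below in 92 of the 232 downregulated genes, against 2.96% of all genes. The median log2 fold change over all genes tested was -0.02. Below, a gene that rose was higher in injured than in contralateral joints, which is not a change over time.

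**Figure D1:**
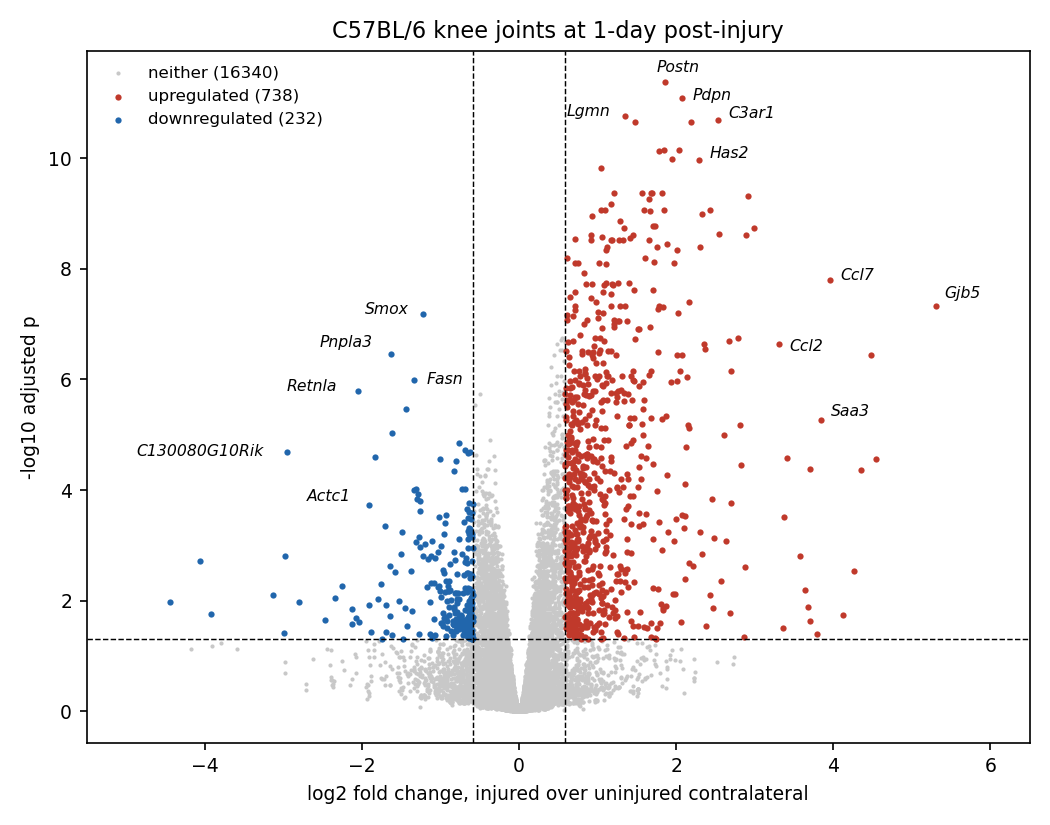
Change in expression of each of the 17310 genes tested between injured and uninjured contralateral C57BL/6 joints at 1-day (x axis, log2 fold change) against the strength of evidence (y axis, -log10 of the adjusted p). The 738 upregulated genes are drawn in red and the 232 downregulated genes in blue, with the dashed lines at 1.5-fold and at an adjusted p of 0.05. The genes named beside their points include Postn, Pdpn and Has2 on the right and Smox, Fasn and Retnla on the left.

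The gene with the smallest adjusted p was Postn (chr3:54359267-54391041 in GRCm38), which encodes periostin, a matricellular protein of healing connective tissue. Its level in the 5 injured joints was 1565, 1055, 1518, 1844 and 1450.2 CPM, against 355, 438, 391, 396 and 457 in the uninjured joints. Every injured joint lay above every uninjured one (log2 fold change 1.86, SE 0.12, adjusted p = 4.26e-12), while the 4 joints before injury ranged from 565 to 732 CPM. Pdpn, which encodes podoplanin, a glycoprotein of lining fibroblasts and lymphatic vessels, was 4.21-fold higher, at 58.4 to 101 against 14.6 to 22.9 CPM (adjusted p = 8.07e-12).

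Among the largest changes were genes with little RNA in the uninjured joints. Saa3, an acute-phase serum amyloid made by macrophages and synovial cells, was at 4.17 to 10.1 against 0 to 1.02 CPM (log2 fold change 3.84, SE 0.55, adjusted p = 5.39e-06). Ptx3, a pattern recognition protein of the innate immune system, rose 7.44-fold, at 41.2 to 162 against 7.33 to 14.5 CPM, and Chl1, a neural cell adhesion protein, rose 7.94-fold (adjusted p = 2.51e-09 and 1.87e-09). Gjb5, a connexin of gap junctions, had 81 reads over the 5 injured joints and 2 over the 5 uninjured joints, and Uox, the urate oxidase, had 80 and 4. Both passed the test (adjusted p = 4.76e-08 and 3.57e-07), but at so few reads their fold changes were not precise.

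Chemokines and their receptors were the first group examined. For the list counts given from here on, the shares over all genes tested were 4.26% upregulated and 1.34% downregulated. Of 17 CC chemokines 4 were upregulated and 1 downregulated, with a median log2 fold change of 0.46, and of 14 CXC chemokines 5 were upregulated, with a median of 0.64. Ccl7 (chr11:82045712-82047525) and Ccl2 (chr11:82035577-82037452), both ligands of the monocyte receptor CCR2, had the largest fold changes of the CC list. Ccl7 measured 15.0, 7.79, 10.9, 19.9 and 12.3 CPM in injured joints and 0.786, 1.38, 0.0902, 0.405 and 1.87 in uninjured joints (log2 fold change 3.96, SE 0.40, adjusted p = 1.58e-08). Ccl2 measured 7.57, 5.69, 8.80, 9.74 and 6.43 CPM and 0.674, 1.10, 0.361, 0.540 and 1.27 CPM (log2 fold change 3.31, SE 0.39, adjusted p = 2.33e-07). In both genes every injured joint was above every uninjured joint. Ccl8 was 3.25-fold higher (adjusted p = 0.000764), and Ccl12 completed the upregulated members. Ccl12 lost the call with any 1 of 3 libraries left out (adjusted p = 0.0693 to 0.142). Ccl24, an eosinophil-attracting chemokine of tissue macrophages, was downregulated, at 2.23 to 2.47 against 3.06 to 7.41 CPM (log2 fold change -0.88, SE 0.22, adjusted p = 0.00436).

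The upregulated CXC chemokines held 3 neutrophil-attracting ligands, Cxcl1, Cxcl3 and Cxcl5, of which Cxcl3 was not called without uninjured replicate 4 (adjusted p = 0.0503). Cxcl5 (chr5:90759298-90761625) measured 14.8, 5.94, 9.46, 30.7 and 11.05 CPM in injured and 1.57, 2.48, 2.08, 2.61 and 2.29 in uninjured joints (log2 fold change 2.70, SE 0.34, adjusted p = 7.07e-07). Cxcl1 rose 7.09-fold, at 2.23 to 4.49 against 0.225 to 1.02 CPM (adjusted p = 3.53e-05). The smallest adjusted p in the group belonged to Cxcl16, the ligand of CXCR6 and a scavenger receptor of macrophages, at 16.3 to 25.7 against 5.86 to 6.88 CPM (log2 fold change 1.71, SE 0.15, adjusted p = 1.67e-09). Cxcl14 rose 1.94-fold (adjusted p = 2.75e-05), whereas Cxcl12, the marrow retention factor, was at 612 to 709 against 691 to 846 CPM and did not reach 1.5-fold (log2 fold change -0.27, SE 0.08, adjusted p = 0.0184).

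Of 20 chemokine receptors 3 were upregulated and 1 downregulated. Cx3cr1, the fractalkine receptor of monocytes and macrophages, measured 51.4, 44.7, 61.5, 66.4 and 45.0 CPM in injured and 24.9, 28.9, 29.2, 27.0 and 31.5 CPM in uninjured joints. It rose 1.90-fold and Ccr2 1.605-fold (adjusted p = 3.68e-07 and 3.93e-05), and the injured and uninjured joints did not overlap in either. Ackr2, a decoy receptor that clears CC chemokines, was downregulated (log2 fold change -0.92, SE 0.26, adjusted p = 0.0103).

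Of 15 genes of the IL-6 family 4 were upregulated, 2 ligands, 1 receptor and 1 feedback gene. The ligand Il11 measured 4.42, 1.61, 1.58, 6.44 and 3.98 CPM in injured joints and 0.337, 0.368, 0.361, 0.810 and 0.509 in uninjured joints (log2 fold change 2.82, SE 0.41, adjusted p = 6.63e-06). Il6 itself was sparse, with 78 reads over the injured and 18 over the uninjured joints (log2 fold change 2.46, SE 0.44, adjusted p = 0.000146). Osmr, the oncostatin M receptor, rose 2.01-fold, at 35.3 to 56.5 against 19.97 to 25.4 CPM (adjusted p = 7.89e-08). Socs3, a feedback inhibitor induced by gp130 signalling, rose 2.38-fold (adjusted p = 8.98e-05), and Il6st, which encodes gp130, passed the adjusted p but not 1.5-fold (log2 fold change 0.41, SE 0.08, adjusted p = 0.000328).

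The IL-1 family had 3 upregulated members of 16 and the TNF and NF-kB genes 3 of 21. Il33, an alarmin stored in the nuclei of fibroblasts and endothelium, measured 16.7 to 44.5 CPM in injured and 6.07 to 12.3 in uninjured joints (log2 fold change 1.55, SE 0.24, adjusted p = 2.47e-05). The receptor Il1r1 rose 2.12-fold and Il1b 1.54-fold (adjusted p = 1.97e-08 and 0.00219). Il1b fell short of 1.5-fold with any 1 of 3 libraries left out (log2 fold changes 0.57 to 0.58). For Il1b the 4 joints before injury ranged from 18.4 to 27.2 CPM, a range that reached the injured joints at 17.1 to 22.6. Tnfaip6, whose product TSG-6 crosslinks hyaluronan, rose 5.14-fold (adjusted p = 2.77e-07). Tnfrsf12a, the receptor of TWEAK, rose 2.89-fold, and Bcl3, a nuclear partner of NF-kB, 1.75-fold (adjusted p = 1.31e-06 and 6.29e-05). Ptgs2, the inducible cyclooxygenase COX-2, was the 1 upregulated gene among 22 prostaglandin and leukotriene genes, at 3.81 to 11.7 against 1.29 to 2.02 CPM (log2 fold change 2.13, SE 0.27, adjusted p = 9.19e-07). A count of 1 among 22 is near the 4.26% upregulated over all genes tested.

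**Figure D2:**
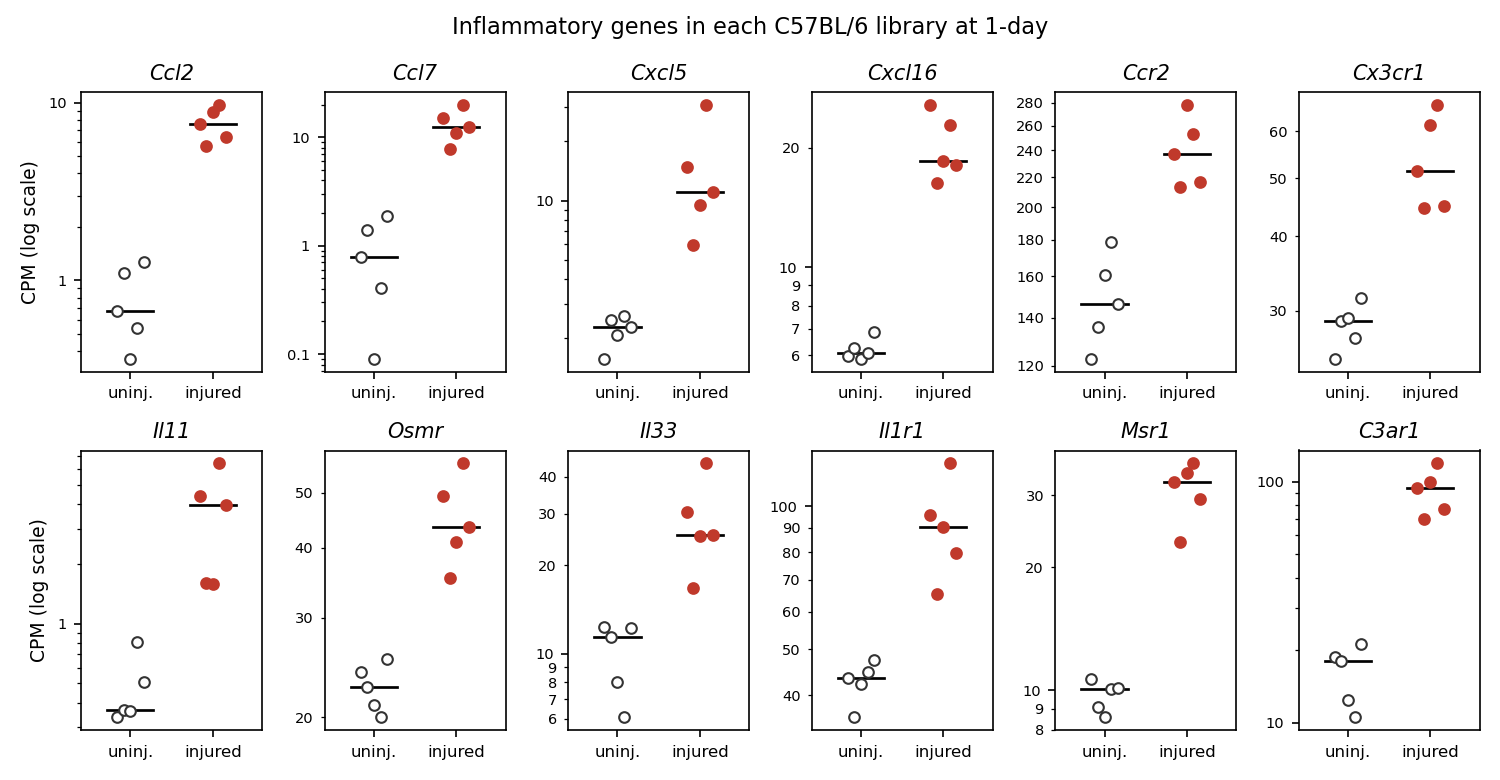
Level of 12 inflammatory genes in each of the 10 libraries (y axis, CPM on a log scale; filled circles injured joints, open circles uninjured contralateral joints, bars the median of each group). In all 12 genes the 5 injured joints lie above the 5 uninjured ones, as in Ccl7 with 7.79 to 19.9 CPM against 0.0902 to 1.87 and in Ccr2 with 213 to 278 CPM against 123 to 179. The 12 were picked from the upregulated genes, and 6.92% of all genes tested showed that separation. Downregulated genes of the same lists, such as Ccl24 and Ackr2, are not drawn.

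Promoters were looked up for the upregulated chemokine and IL-6 family genes to show the sequence just before their transcription start. Osmr, Il11 and Cxcl14 had the smallest adjusted p among those with an entry in the RefSeq promoter table (build GRCm38.p6), and the 250 bases before the start of each are given 5′ to 3′ on the gene's strand, with any match to 4 motifs in capitals.
Osmr, chr15:6874314-6874563, minus strand: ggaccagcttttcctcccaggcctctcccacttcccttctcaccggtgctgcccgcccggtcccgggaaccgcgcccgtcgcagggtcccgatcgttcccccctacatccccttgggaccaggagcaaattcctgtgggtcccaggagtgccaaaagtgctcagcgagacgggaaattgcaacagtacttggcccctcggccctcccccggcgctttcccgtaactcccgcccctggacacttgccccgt
Il11, chr7:4782858-4783107, minus strand: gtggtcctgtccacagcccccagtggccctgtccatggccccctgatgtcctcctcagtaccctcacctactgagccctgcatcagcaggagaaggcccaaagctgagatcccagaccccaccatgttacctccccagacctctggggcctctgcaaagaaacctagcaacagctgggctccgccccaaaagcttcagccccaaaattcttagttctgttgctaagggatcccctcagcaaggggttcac
Cxcl14, chr13:56296552-56296801, minus strand: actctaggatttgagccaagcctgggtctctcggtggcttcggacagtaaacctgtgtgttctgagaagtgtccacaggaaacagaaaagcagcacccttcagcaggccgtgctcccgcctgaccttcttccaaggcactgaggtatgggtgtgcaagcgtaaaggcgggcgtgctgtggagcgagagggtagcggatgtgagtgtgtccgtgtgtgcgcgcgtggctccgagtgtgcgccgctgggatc
The motifs, read on both strands, were TGANTCA for AP-1 (N is any base), GGG followed after any 2 bases by TTTCC for NF-kB, TGACGTCA for CRE, and CC, any base, TAT, any 2 bases and GG for SRF, and none of these letters occurred in the 3 stretches, so no capitals appear. Over the 300 bases from 250 before to 50 after the start, the AP-1 letters were in 54 of 557 promoters of upregulated genes (9.69%), in 8 of 164 of downregulated genes (4.88%) and in 749 of 13233 of all genes tested (5.66%). The NF-kB letters were in 3.05%, 1.83% and 1.65% of them, the CRE letters in 2.69%, 3.66% and 2.86%, and the SRF letters in 2.33%, 3.05% and 1.49%. These shares are a description of the sequence and were not tested.

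Of 15 marker genes of monocytes and macrophages 7 were upregulated and none downregulated, with a median log2 fold change of 0.58. Msr1, a scavenger receptor, measured 32.4, 23.0, 34.0, 35.9 and 29.3 CPM in injured and 10.7, 9.11, 8.57, 10.1 and 10.1 in uninjured joints (log2 fold change 1.67, SE 0.15, adjusted p = 8.91e-10). Adgre1, which encodes the macrophage marker F4/80, measured 128, 100.3, 130.4, 131 and 107 CPM and 52.9, 62.5, 62.8, 66.3 and 66.2 CPM (log2 fold change 0.94, SE 0.10, adjusted p = 1.92e-08). Of all genes tested, 6.92% had every injured joint above every uninjured joint and 2.96% below. The injured joints lay above the uninjured joints in 10 of the 15 members, Msr1 and Adgre1 included, and below the uninjured joints in 2, Ly6c2 and Chil3. These did not reach 1.5-fold (Ly6c2, log2 fold change -0.54, SE 0.12, adjusted p = 0.00143, and Chil3, log2 fold change -0.55, SE 0.09, adjusted p = 2.37e-05) but were called in 6 of 22 alternatives each. Cd14, the coreceptor for endotoxin, rose 2.10-fold (adjusted p = 5.15e-07), and Fcgr1, Ccr2 and Cx3cr1 were upregulated as well. Lyz2, which marrow neutrophils and monocytes also express, was at 1675 to 1935 against 1556 to 2292 CPM (log2 fold change -0.05, SE 0.09, adjusted p = 0.765).

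The complement list had 5 upregulated and 2 downregulated genes of 19. C3ar1, the receptor for the fragment C3a, measured 94.4, 69.8, 99.8, 119 and 77.1 CPM in injured and 18.7, 18.03, 12.5, 10.5 and 21.3 in uninjured joints (log2 fold change 2.53, SE 0.18, adjusted p = 2.09e-11). C1qa and C1qc, subunits of the C1q complex that tissue macrophages make, rose 1.66-fold and 1.67-fold (adjusted p = 5.47e-06 and 2.05e-06), together with C1qb, and factor B (Cfb) rose 2.09-fold (adjusted p = 2.35e-06). The downregulated genes were C7 and Cfd, the factor D made by fat cells. Of 15 MHC genes 3 were upregulated, all of class II. H2-Eb1 was at 121 to 144 against 63.8 to 77.6 CPM (log2 fold change 0.89, SE 0.17, adjusted p = 0.00023), and H2-Ab1 and H2-Aa rose 1.73-fold and 1.61-fold (adjusted p = 0.000453 and 0.0166). Of the Toll-like receptors and their adaptors Tlr1 and Cd14 were upregulated, 2 of 20 (Tlr1, log2 fold change 0.82, SE 0.13, adjusted p = 3.96e-05).

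No gene in the lists of other leukocytes was upregulated. None of 14 neutrophil genes was upregulated or downregulated, and Ngp, a granule protein of maturing neutrophils, was at 2956 to 3819 CPM in injured and 4181 to 5452 in uninjured joints (log2 fold change -0.51, SE 0.09, adjusted p = 8.8e-05). In 7 of the 14 neutrophil genes every injured joint lay below every uninjured joint, against 2.96% of all genes tested. Among 12 genes of B cells and plasma cells Vpreb1 was downregulated (log2 fold change -0.73, SE 0.22, adjusted p = 0.0188), among 8 erythroid genes Tfrc (log2 fold change -0.59, SE 0.11, adjusted p = 0.000181), and among 12 genes of T cells and NK cells none, with medians of -0.45, -0.48 and -0.27. Vpreb1 was not called without injured replicate 1 or 5 (adjusted p = 0.0699 and 0.0768). Without uninjured replicate 1, 4 of the 8 erythroid genes were downregulated, while Tfrc lost the call, by falling short of 1.5-fold, with any 1 of 6 other libraries left out (log2 fold changes -0.58 to -0.50). Retnla, a product of alternatively activated macrophages and eosinophils, was downregulated without overlap, at 3.96, 5.32, 5.12, 3.74 and 5.25 CPM in injured and 24.9, 20.5, 16.7, 14.1 and 20.7 in uninjured joints (log2 fold change -2.05, SE 0.27, adjusted p = 1.65e-06). Whether marrow content, with the summed levels given above, has a part in these values was not tested.

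**Figure D3:**
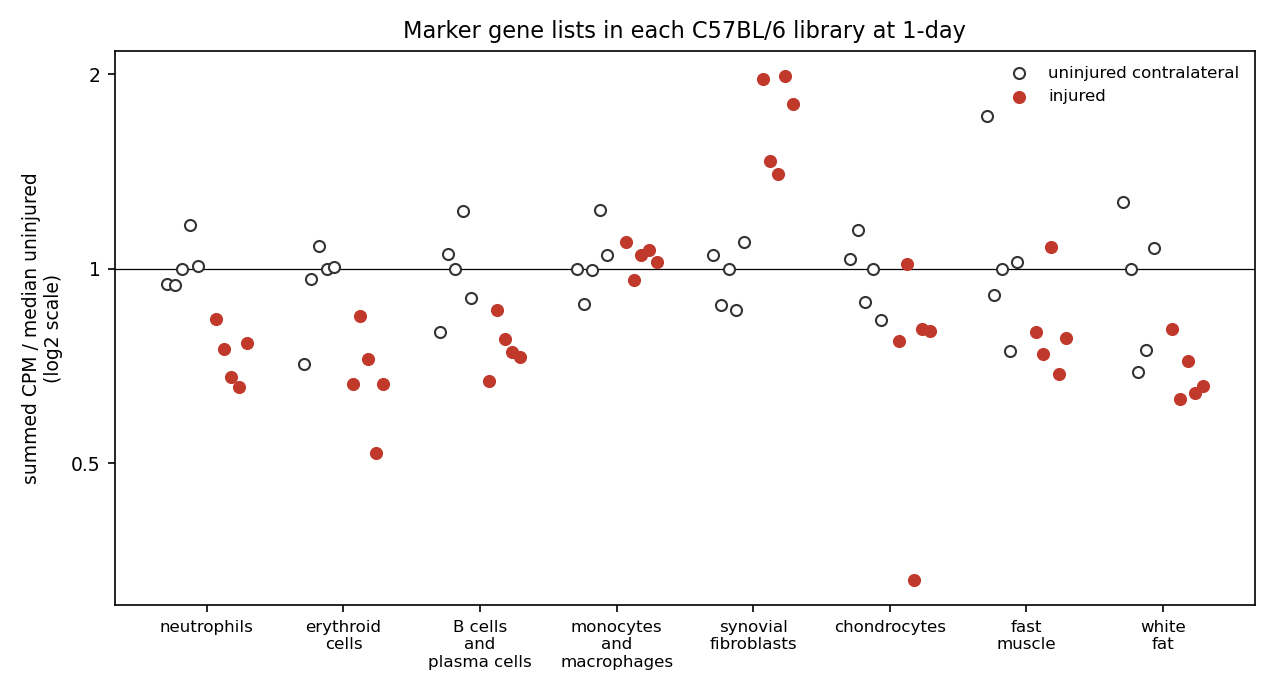
Summed CPM of 8 marker gene lists in each of the 10 libraries, divided by the median of the 5 uninjured contralateral joints (y axis, ratio on a log2 scale; filled circles injured, open circles uninjured). Neutrophil genes summed to 11070.5 to 14113 CPM in injured and 15903 to 19686 in uninjured joints, synovial fibroblast genes to 3769 to 5352 and 2324 to 2964, and the high fast muscle point is uninjured replicate 1.

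Matrix genes of fibrous tissue were upregulated together. Of 23 genes for fibrillar collagens and their processing 16 were upregulated and none downregulated, with a median log2 fold change of 0.94 where all genes tested had -0.02. In 17 of the 23 the injured joints lay above all uninjured joints, against 6.92% of all genes tested. The summed level of the list was 24956 to 38184 CPM in injured and 17268 to 27332 in uninjured joints, and the joints before injury, at 26042 to 33967, lay within the range of the injured ones. Col3a1 (chr1:45311538-45349706), the type III collagen of early scar, measured 7026, 4464, 5210.1, 8437 and 6122 CPM in injured joints and 1957, 1770.3, 1283, 1677 and 1794 in uninjured joints (log2 fold change 1.88, SE 0.18, adjusted p = 3.61e-09). Col5a1, whose chain starts collagen fibrils, rose 2.40-fold (adjusted p = 1.81e-08), and the remaining collagen members were Col5a2, Col5a3, Col6a1, Col6a2, Col6a3 and Col14a1. Col1a1 and Col1a2, the type I collagen of bone and tendon, were at 7432 to 11174 against 6144 to 10818 CPM and at 7139.7 to 10802 against 6372 to 10840.5 CPM. Their groups overlapped (log2 fold changes 0.17 and 0.13, adjusted p = 0.447 and 0.571).

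Among the upregulated genes were enzymes that fold and crosslink collagen. Lox, the lysyl oxidase that crosslinks collagen and elastin, measured 388, 276, 339, 497 and 364 CPM in injured and 134, 141, 121, 105 and 128 in uninjured joints (log2 fold change 1.56, SE 0.13, adjusted p = 4.26e-10). P4ha3, a subunit of the prolyl hydroxylase that stabilises the triple helix, rose 5.82-fold, at 28.1 to 59.2 against 4.83 to 9.26 CPM (adjusted p = 2.38e-09). P4ha2, Plod1, Plod3, the collagen chaperone Serpinh1, Loxl1 and Loxl3 were also upregulated, while P4ha1, Plod2, Loxl2 and Loxl4 did not pass both thresholds, Loxl2 passing them in 7 of 22 alternatives.

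Of 18 matricellular genes 11 were upregulated and none downregulated (median log2 fold change 0.73). Besides Postn, Cthrc1, which is made at sites of vascular and dermal repair, measured 106, 77.8, 91.2, 138 and 102 CPM in injured and 24.6, 33.5, 26.3, 22.9 and 27.3 in uninjured joints (log2 fold change 1.94, SE 0.15, adjusted p = 1.05e-10). Fbn1, the fibrillin of elastic microfibrils, rose 3.16-fold and Thbs2, thrombospondin 2, 2.28-fold (adjusted p = 5.58e-10 and 2.99e-09), and the injured joints were above the uninjured ones in both. Sparc, which bone makes in quantity, did not pass the test, at 3270.4 to 4770.0 against 3750.3 to 5152 CPM (log2 fold change 0.01, SE 0.12, adjusted p = 0.984).

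Among the small leucine-rich proteoglycans, which bind collagen fibrils, 3 of 12 were upregulated. Biglycan (Bgn) rose 1.72-fold, asporin (Aspn) 2.25-fold and podocan (Podn) 1.80-fold (adjusted p = 2.38e-05, 3.01e-05 and 0.000343). The summed level of the 12 was 5136 to 7279 CPM in injured, 4574 to 5699.5 in uninjured and 5353 to 7527 in joints before injury, with overlap between all of these. For Aspn the joints before injury lay between, at 114 to 177 CPM against 172 to 237 in injured and 81.5 to 103 in uninjured joints. Of 17 genes of hyaluronan and lubricin 5 were upregulated. Has2, a hyaluronan synthase, measured 32.0, 18.9, 26.3, 49.4 and 27.9 CPM in injured and 6.51, 6.71, 4.96, 6.48 and 7.13 in uninjured joints (log2 fold change 2.29, SE 0.18, adjusted p = 1.07e-10). Has1 rose 3.39-fold, the hyaluronan-binding proteoglycan versican (Vcan) 2.85-fold and Prg4, which encodes lubricin, 1.84-fold (adjusted p = 0.000102, 1.23e-07 and 0.000115).

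Some markers of synovial fibroblasts and of tendon were upregulated. Of 10 synovial fibroblast genes 5 were upregulated, Pdpn, Thy1, Has1, Prg4 and Col6a1, and Clic5 was downregulated. Clic5 fell short of 1.5-fold with any 1 of 5 libraries left out (log2 fold changes -0.57 to -0.48). Thy1, a surface protein of sublining fibroblasts, was at 33.0 to 53.3 against 16.2 to 27.7 CPM (log2 fold change 0.99, SE 0.17, adjusted p = 5.97e-05). Of 7 tendon and ligament genes 2 were upregulated, the tendon transcription factor Scx (log2 fold change 1.34, SE 0.18, adjusted p = 2.51e-06) and thrombospondin 4, Thbs4 (log2 fold change 1.04, SE 0.17, adjusted p = 2.61e-05). None of 10 endothelial genes, 8 genes of pericytes and smooth muscle or 8 Schwann cell genes was upregulated or downregulated.

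**Figure D4:**
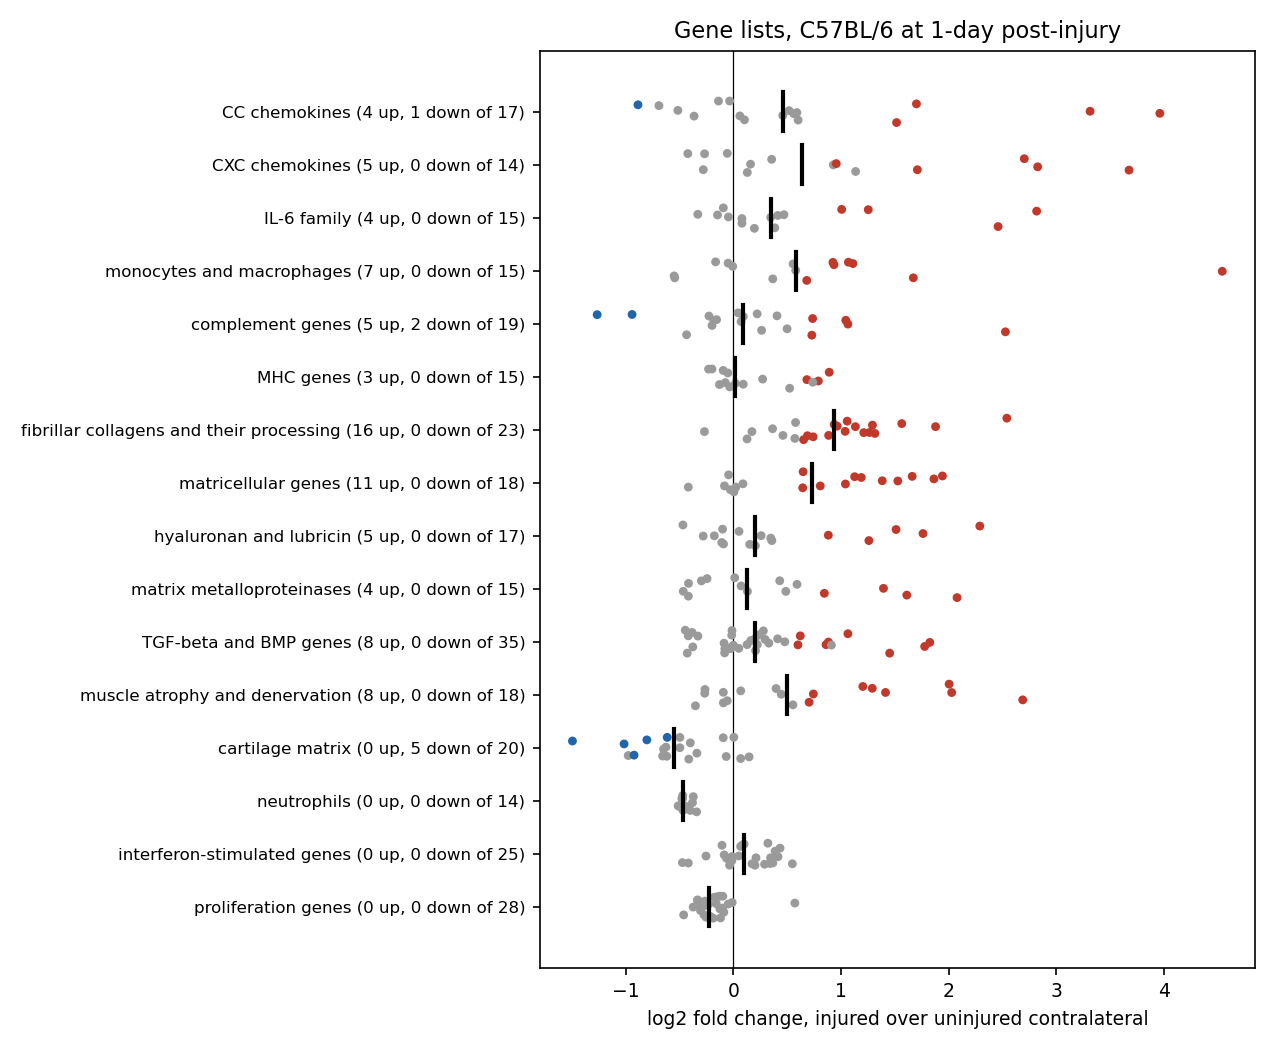
Log2 fold change between injured and uninjured contralateral joints for the members of 16 gene lists (x axis; red points upregulated, blue points downregulated, grey points neither, black bars the list medians). The collagen list has 16 of 23 members upregulated and a median of 0.94, the cartilage list 5 of 20 downregulated and a median of -0.56, and the neutrophil list none in either direction and a median of -0.47.

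Of 15 matrix metalloproteinases 4 were upregulated, Mmp3, Mmp12, Mmp19 and Mmp23. Mmp3, the stromelysin of synovial fibroblasts (chr9:7445822-7455975), measured 39.5, 17.8, 21.1, 41.8 and 33.1 CPM in injured and 7.86, 6.35, 6.32, 7.02 and 9.17 in uninjured joints (log2 fold change 2.08, SE 0.25, adjusted p = 3.57e-07). Mmp19 rose 2.63-fold and Mmp12, the macrophage elastase, 3.06-fold (adjusted p = 1.79e-08 and 0.000273). Mmp2, the gelatinase of fibroblasts, was higher in every injured joint but under 1.5-fold (log2 fold change 0.43, SE 0.11, adjusted p = 0.00408), and Mmp9, which marrow neutrophils and osteoclasts make, was lower in every injured joint and also under 1.5-fold (log2 fold change -0.42, SE 0.11, adjusted p = 0.00528). Of the 19 ADAMTS proteases Adamts4 (log2 fold change 1.68, SE 0.21, adjusted p = 7.03e-07) and Adamts1 (log2 fold change 0.83, SE 0.15, adjusted p = 0.00018), which cut aggrecan, and Adamts12 (log2 fold change 0.92, SE 0.12, adjusted p = 1.95e-06) were upregulated. Timp1 measured 143, 90.1, 105, 194 and 118 CPM in injured and 25.3, 24.8, 23.6, 23.3 and 32.5 in uninjured joints, a 5.03-fold rise (adjusted p = 1.02e-09), whereas Timp4 was downregulated (log2 fold change -0.92, SE 0.18, adjusted p = 0.000288) and Timp2 was at 359 to 462 against 361 to 490.5 CPM (adjusted p = 0.952).

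The plasminogen system, which dissolves fibrin clots and activates metalloproteinases, had 5 upregulated genes of 16. The activators Plau (urokinase) and Plat (tissue plasminogen activator) rose 1.95-fold and 2.08-fold (adjusted p = 1.76e-07 and 3.68e-05), and their docking protein Anxa2 rose 1.62-fold (adjusted p = 7.07e-08). Tfpi2 was upregulated too, but lost the call with any 1 of 4 libraries left out (log2 fold changes 0.45 to 0.66, adjusted p = 0.0678 to 0.229).

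Cartilage genes were downregulated or did not pass both thresholds. Of 20 genes 5 were downregulated and none upregulated (median log2 fold change -0.56), namely Cytl1, Ucma, Cilp2, Matn3 and Col10a1. Cytl1, a secreted protein of chondrocytes (chr5:37735519-37739820), measured 38.4, 75.1, 22.5, 40.0 and 51.6 CPM in injured and 92.6, 109, 145, 139 and 155 in uninjured joints (log2 fold change -1.49, SE 0.30, adjusted p = 0.00057). Matn3, matrilin 3, was at 34.0, 60.4, 10.2, 34.5 and 35.8 CPM against 58.5, 94.4, 57.5, 61.5 and 60.1 (log2 fold change -0.92, SE 0.31, adjusted p = 0.0316). In both genes injured replicate 3 was the lowest of the 10 joints, as it was in the summed level of the list. That sum was 2327 to 6575 CPM in injured and 5569 to 7540 in uninjured joints. The joints before injury ranged from 4513 to 10761 CPM and overlapped both groups. The main collagen of cartilage, Col2a1, was at 1683, 2458, 577, 1887 and 1726 CPM against 2516, 2717, 2112, 2490.1 and 1915 CPM, with overlap between the groups (log2 fold change -0.50, SE 0.27, adjusted p = 0.216). The number of cartilage genes called depended on single libraries. It was 2 without injured replicate 3, injured replicate 4 or uninjured replicate 2, 3 without injured replicate 1 or 5, 10 without injured replicate 2, and again 2 when injured replicate 3 and uninjured replicate 1 were both left out. Matn3 lost the call without injured replicate 1, 3, 4 or 5 or uninjured replicate 2, with log2 fold changes of -0.93 to -0.68. Cilp2 lost it with any 1 of 4 libraries left out and Col10a1 with any 1 of 6 (log2 fold changes -0.62 to -0.51 and -0.81 to -0.58). None of 15 osteoblast and osteocyte genes passed both thresholds. Of 11 osteoclast genes Tnfrsf11a, which encodes RANK, was upregulated (log2 fold change 0.67, SE 0.10, adjusted p = 1.21e-05), and Oscar and Dcstamp were downregulated (log2 fold changes -0.63 and -0.63, adjusted p = 0.0158 and 0.0283). Oscar lost the call with any 1 of 3 libraries left out and Dcstamp with any 1 of 5 (log2 fold changes -0.56 to -0.52 and -0.62 to -0.54).

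Among growth factor pathways, of 35 TGF-beta and BMP genes 8 were upregulated, among them Ltbp2 and Ltbp1, latent TGF-beta binding proteins, Fstl1, a follistatin-like protein, and Bmper, a BMP binding protein. Ltbp2 measured 69.8 to 149.7 against 24.6 to 33.7 CPM (log2 fold change 1.82, SE 0.15, adjusted p = 4.26e-10) and Fstl1 561 to 984 against 240.2 to 348 CPM (log2 fold change 1.45, SE 0.13, adjusted p = 2.41e-09). Bmper rose 3.43-fold and Ltbp1 1.52-fold (adjusted p = 4.64e-08 and 2.82e-06), and the remaining upregulated members were Tgfb3, Inhba, Fstl3 and Nog. The count of 8 became 4 without injured replicate 4 and 5 without uninjured replicate 3. Fstl3 lost the call with any 1 of 6 libraries left out (adjusted p = 0.0616 to 0.276), Ltbp1 with any 1 of 3, Tgfb3 with either of 2 and Nog without injured replicate 4. Of 36 Wnt genes 6 were upregulated. The secreted antagonist Sfrp1 measured 76.2, 42.4, 75.8, 107 and 56.1 CPM in injured and 13.9, 15.6, 11.2, 13.4 and 18.4 in uninjured joints (log2 fold change 2.30, SE 0.22, adjusted p = 3.97e-09). Sfrp2 rose 3.56-fold (adjusted p = 4.93e-08), and the receptors Fzd2 and Fzd1 2.36-fold and 1.95-fold (adjusted p = 2.6e-06 and 6.62e-06).

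Igf1, insulin-like growth factor 1, rose 1.83-fold and Igfbp7 1.53-fold (adjusted p = 3.21e-07 and 3.28e-05), as 2 of 11 IGF genes, and Igfbp7 fell short of 1.5-fold without injured replicate 4 or uninjured replicate 3. Of 23 EGF receptor ligands and FGFs 4 were upregulated. Fgf7, a fibroblast factor that acts on epithelium, was at 17.1 to 27.8 against 9.63 to 13.8 CPM (log2 fold change 0.86, SE 0.13, adjusted p = 6.77e-06). The other three, Fgf2, Ereg and Areg, were sparse, and Areg had 9 reads over the injured joints and 0 over the uninjured joints. Fgf2 lost the call with any 1 of 5 libraries left out (adjusted p = 0.0506 to 0.0916) and Areg without injured replicate 4 (adjusted p = 0.0916). Of 20 angiogenesis genes the peptide Apln and its receptor Aplnr were upregulated (log2 fold changes 1.82 and 0.67, adjusted p = 5.16e-06 and 1.87e-05). Hif1a, a hypoxia-inducible transcription factor subunit, was at 190.4 to 309 against 108 to 134 CPM (log2 fold change 1.02, SE 0.10, adjusted p = 7.93e-09), and with the glucose transporter Slc2a1 (log2 fold change 0.80, SE 0.14, adjusted p = 0.000113) made up the 2 upregulated of 27 hypoxia and glycolysis genes. The 4 downregulated members were the glycolytic enzymes Eno3 and Pgam2, which are muscle forms, and Tpi1, and Car9, and the count of 4 became 2 without injured replicate 4 and 1 without uninjured replicate 1.

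Stress genes were examined next. Of 18 antioxidant genes the metallothioneins Mt2 and Mt1, the extracellular superoxide dismutase Sod3 and the sulfiredoxin Srxn1 were upregulated, Srxn1 under 1.5-fold without uninjured replicate 2. Mt2 measured 397, 160.5, 209, 516 and 188 CPM in injured and 47.4, 41.1, 59.3, 74.4 and 63.9 in uninjured joints (log2 fold change 2.35, SE 0.28, adjusted p = 2.31e-07), and Sod3 389, 228, 342, 528 and 329.9 and 100.1, 125, 89.7, 91.7 and 128 (log2 fold change 1.76, SE 0.17, adjusted p = 3.97e-09). Of 22 heat shock and unfolded protein genes 5 were upregulated, with the chaperones of the endoplasmic reticulum Pdia4, Pdia6 and Hsp90b1 between 1.5004-fold and 1.57-fold (adjusted p = 1.45e-06, 2.35e-06 and 3.4e-05). The count of 5 became 1 without injured replicate 4 and 3 without uninjured replicate 1, 3 or 5. Of 20 immediate early genes Junb (log2 fold change 1.16, SE 0.27, adjusted p = 0.00246), Ier3 (log2 fold change 0.96, SE 0.20, adjusted p = 0.000682) and the sparse Fosl1 were upregulated. Fosl1 had 10 reads over the injured joints and 0 over the uninjured joints. Angptl4, a lipoprotein lipase inhibitor and target of glucocorticoid and hypoxia signalling, rose 3.91-fold (adjusted p = 7.86e-09), while Lcn2, lipocalin 2 of neutrophil granules, was lower in every injured joint but under 1.5-fold (log2 fold change -0.47, SE 0.08, adjusted p = 0.000105). None of 25 interferon-stimulated genes, 28 proliferation genes or 22 respiratory chain genes passed both thresholds. Mki67, a marker of dividing cells that is abundant in marrow, was at 1017 to 1596 against 1198 to 1859 CPM (log2 fold change -0.29, SE 0.13, adjusted p = 0.105).

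Muscle genes were also among those that changed. Of 18 genes of muscle atrophy and denervation 8 were upregulated and none downregulated (median log2 fold change 0.50), while of 14 fast muscle genes Myh1 was upregulated and Pvalb downregulated. Myh1 lost the call with any 1 of 6 libraries left out, with log2 fold changes of 0.65 to 0.75, and Pvalb with any 1 of 7, with -0.64 to -0.43. Fbxo32, the atrophy ubiquitin ligase atrogin-1 (chr15:58175879-58214892), measured 316, 187, 328, 302 and 216 CPM in injured and 165, 82.1, 93.7, 69.4 and 97.5 in uninjured joints (log2 fold change 1.41, SE 0.25, adjusted p = 0.000129). Trim63, which encodes MuRF1, rose 2.30-fold with overlapping groups (adjusted p = 0.00152). Chrna1, a subunit of the muscle acetylcholine receptor that denervated fibres express, measured 9.28 to 20.7 against 2.65 to 4.15 CPM (log2 fold change 2.03, SE 0.22, adjusted p = 6.33e-08). Chrng, Chrnd and Musk of the neuromuscular junction and the myogenic factors Myog (log2 fold change 2.00, SE 0.39, adjusted p = 0.00033) and Myod1 were upregulated as well. Chrng and Myod1 were not called without injured replicate 4 or 1 uninjured library each, nor Musk without uninjured replicate 2. Without injured replicate 3 and uninjured replicate 1 the count was again 8 of 18.

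Other muscle genes were downregulated. Actc1, the cardiac actin that skeletal muscle keeps at low level, was at 118, 179, 144, 106 and 64.7 CPM in injured and 1063, 461, 269, 252 and 241 in uninjured joints (log2 fold change -1.91, SE 0.35, adjusted p = 0.000189). Mettl21c, a methyltransferase of muscle (log2 fold change -1.83, SE 0.29, adjusted p = 2.56e-05), and Mybph, myosin binding protein H (log2 fold change -1.64, SE 0.38, adjusted p = 0.00237), were downregulated too. The highest of the 10 joints in the fast muscle sum was uninjured replicate 1, and the part of muscle content in these values was not tested. Ankrd1, a stretch-responsive nuclear protein of muscle, was upregulated with wide spread, at 61.8, 23.6, 107, 117 and 37.0 CPM in injured and 27.5, 15.8, 16.3, 9.90 and 12.5 in uninjured joints (log2 fold change 2.12, SE 0.40, adjusted p = 0.000289). Of 14 stretch and YAP target genes 4 were upregulated and 1 was downregulated, Csrp3, a LIM protein of muscle (log2 fold change -1.14, SE 0.32, adjusted p = 0.0104). Myof, myoferlin, had the smallest adjusted p (log2 fold change 1.05, SE 0.09, adjusted p = 8.69e-10).

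Some genes of fat synthesis were downregulated. Fasn, the fatty acid synthase (chr11:120805958-120825166), measured 78.3, 76.2, 54.6, 59.2 and 78.3 CPM in injured and 191, 242, 95.4, 122 and 223 in uninjured joints (log2 fold change -1.33, SE 0.17, adjusted p = 1.03e-06). Pnpla3, a lipase of fat and liver, was at 4.04 to 7.68 against 9.56 to 23.0 CPM (log2 fold change -1.63, SE 0.20, adjusted p = 3.43e-07), and Thrsp, a regulator of lipogenesis, at 17.1 to 31.5 against 43.7 to 98.3 CPM (log2 fold change -1.43, SE 0.20, adjusted p = 3.39e-06). In all 3 genes every injured joint lay below every uninjured joint. The joints before injury ranged from 63.0 to 123 CPM in Fasn, from 7.85 to 17.97 in Pnpla3 and from 23.0 to 58.1 in Thrsp. Of a list of 18 genes of fatty acid and triglyceride synthesis, drawn up after these values were seen, 7 were downregulated, none was upregulated and 11 did not pass both thresholds. The fat cell markers Retn and Cfd were downregulated, 2 of 8 white fat genes (Retn, log2 fold change -1.26, SE 0.23, adjusted p = 0.000155; Cfd, log2 fold change -0.94, SE 0.18, adjusted p = 0.0004), and Fabp4, a fatty acid binding protein of fat and endothelium, was at 329 to 427 against 329 to 588 CPM (log2 fold change -0.30, SE 0.14, adjusted p = 0.127). The summed level of the 8 white fat genes was 588 to 753 CPM in injured and 646 to 1187 in uninjured joints, and the part of fat content in these values was not tested.

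Smox, the spermine oxidase of polyamine breakdown, had the smallest adjusted p of all downregulated genes. Its level was 75.9, 76.9, 75.5, 64.6 and 73.6 CPM in injured joints and 264, 129, 148, 156 and 153 in uninjured joints, with no overlap (log2 fold change -1.21, SE 0.13, adjusted p = 6.61e-08). Clec3b, which encodes tetranectin, was at 20.4 to 25.4 against 36.6 to 61.9 CPM (log2 fold change -0.95, SE 0.19, adjusted p = 0.000619), and Pla1a, a phosphatidylserine phospholipase, at 3.55 to 5.07 against 9.29 to 12.8 (log2 fold change -1.34, SE 0.23, adjusted p = 9.95e-05). Ntrk3, the receptor of neurotrophin 3, was downregulated from a low level, at 0.906 to 1.16 against 1.80 to 3.74 CPM (log2 fold change -1.61, SE 0.24, adjusted p = 9.23e-06).

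The response was next set beside that of MRL/MpJ at the same time. In MRL/MpJ 350 genes (2.02%) passed both thresholds between injured and contralateral joints, and the difference between the 2 responses was tested as an interaction. In 55 genes (0.318%) it passed, with the C57BL/6 response the higher in 49 (0.283%) and the lower in 6 (0.0347%). That count was sensitive to single libraries, from 25 without MRL/MpJ injured replicate 3 to 120 without C57BL/6 injured replicate 2, and was 24 when libraries were scaled to housekeeping genes. Postn changed by a log2 fold change of 1.86 (SE 0.12) in C57BL/6 and 0.63 (SE 0.11) in MRL/MpJ, a difference of 1.23 (adjusted p = 0.000246). Lrrc17, a secreted leucine-rich repeat protein of bone, changed by 1.59 and 0.23 (adjusted p of the difference = 0.000743), and Phldb2, a cell adhesion scaffold, by 0.92 and 0.07 (adjusted p = 0.000743). Cthrc1, Col3a1, Thbs2, Sfrp2 and Has2 also had the higher response in C57BL/6, with differences of 1.36, 1.16, 0.82, 1.38 and 1.20 on the log2 scale (adjusted p = 0.002, 0.0242, 0.0121, 0.0339 and 0.0305). Of these, Col3a1, Sfrp2 and Has2 each lost the call without C57BL/6 injured replicate 1, C57BL/6 uninjured replicate 3, MRL/MpJ injured replicate 3 or MRL/MpJ uninjured replicate 1, and without further single libraries (differences 1.07, 1.29 and 1.12 without C57BL/6 uninjured replicate 3).

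In the opposite direction, Fasn and Acaca, the acetyl-CoA carboxylase, were downregulated against contralateral joints in C57BL/6 but had log2 fold changes of 0.01 and 0.03 in MRL/MpJ (adjusted p of the differences = 0.0085 and 0.0267). Hal, the histidine ammonia-lyase, and Adamtsl2 made up the 4 genes with the smallest adjusted p in that direction. In C57BL/6 itself Acaca fell short of 1.5-fold with any 1 of 3 libraries left out (log2 fold changes -0.57 to -0.55). For the difference Fasn kept the call with any 1 library left out. Acaca lost it with any 1 of 7 libraries left out (adjusted p = 0.0505 to 0.0722), Hal with any 1 of 3 (0.0616 to 0.0736) and Adamtsl2 with any 1 of 4 (0.0511 to 0.0751). The responses of Ccl2 and Ccl7 did not pass the test of a difference between the strains. Ccl2 changed by 3.31 (SE 0.39) and 3.65 (SE 0.38) and Ccl7 by 3.96 (SE 0.40) and 4.61 (SE 0.46), with interaction SEs of 0.64 and 0.76 and adjusted p = 0.896 and 0.8.

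Against STR/ort, in which 746 genes (4.31%) passed both thresholds, the response differed in 460 genes (2.66%), higher in C57BL/6 in 429 (2.48%) and lower in 31 (0.179%). Without STR/ort injured replicate 5 the count was 757, with 65 lower in C57BL/6. Without C57BL/6 uninjured replicate 1 it was 580, with 67 lower. The C57BL/6 libraries are the same in this comparison and in that with MRL/MpJ, so the 2 are not independent. Col14a1, Angptl1, Gpnmb and Ptn had the smallest adjusted p among those higher in C57BL/6. Col14a1, a collagen that binds fibril surfaces, had log2 fold changes of 1.31 in C57BL/6 and -1.02 in STR/ort (difference 2.33, SE 0.24, adjusted p = 2.53e-07). Angptl1, an angiopoietin-related protein, changed by 1.15 and -1.83 (adjusted p = 9.5e-08), Gpnmb, a glycoprotein of macrophages and osteoclasts, by 0.89 and -1.40 (adjusted p = 1.51e-07), and Ptn, the growth factor pleiotrophin, by 0.68 and -1.03 (adjusted p = 2.53e-07). Col3a1 had -0.09 in STR/ort against 1.88 in C57BL/6 (adjusted p of the difference = 4.91e-06), and Prg4 0.00 against 0.88 (adjusted p = 0.0153). Cxcl16 and C3ar1 had the higher response in C57BL/6 as well (differences 0.91 and 1.18, adjusted p = 0.0103 and 0.00284), while Ccl2, Ccl7, Il6 and Timp1 passed no test of the difference (differences -0.21, -0.33, -0.89 and -0.02, adjusted p = 0.904, 0.845, 0.51 and 0.983).

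In the opposite direction Smox, Hal, Hmox1, the haem oxygenase of the antioxidant response, and the predicted gene Gm20362 had the smallest adjusted p. Smox changed by -1.21 in C57BL/6 and -0.22 in STR/ort (adjusted p = 0.00136). Hmox1 was at 86.8 to 117 against 71.9 to 114 CPM in C57BL/6 (log2 fold change 0.09, SE 0.10, adjusted p = 0.629) and had a log2 fold change of 1.03 in STR/ort (adjusted p of the difference = 0.000143). Cxcl14 had 1.82 in STR/ort against 0.96 in C57BL/6 (adjusted p = 0.0132).

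**Figure D5:**
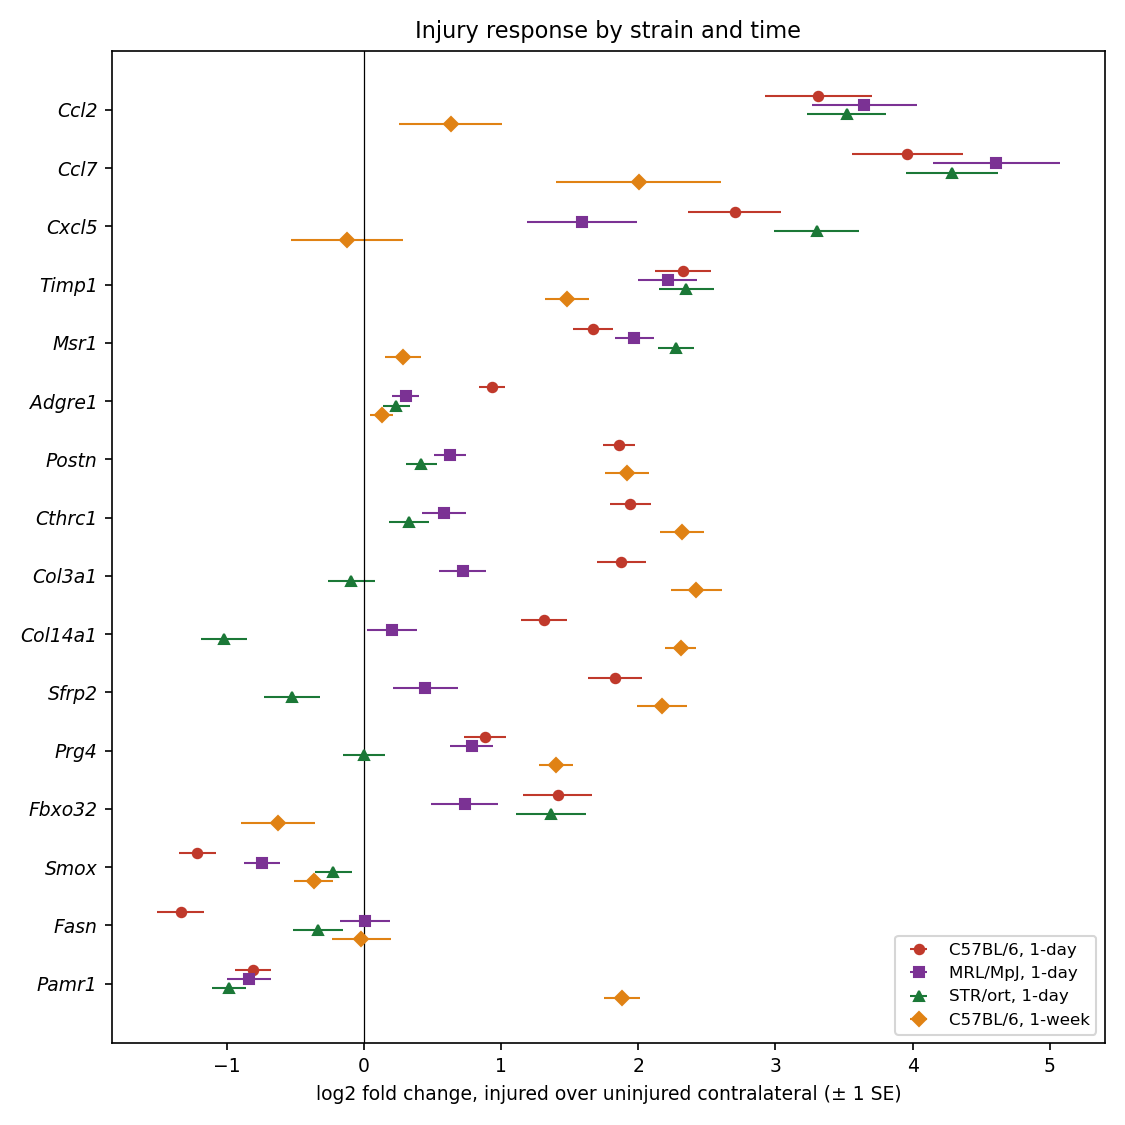
Log2 fold change between injured and uninjured contralateral joints (x axis; bars ± 1 SE) of 16 genes in C57BL/6 at 1-day, MRL/MpJ at 1-day, STR/ort at 1-day and C57BL/6 at 1-week, with 5 libraries in each group. Ccl2 stands at 3.31, 3.65, 3.52 and 0.63, Postn at 1.86, 0.63, 0.42 and 1.92, and Fasn at -1.33, 0.01, -0.34 and -0.02.

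At 1-week post-injury 1006 C57BL/6 genes (5.81%) passed both thresholds, 816 upregulated (4.71%) and 190 downregulated (1.10%), and the response at 1-day differed from it in 266 genes (1.54%). It was higher at 1-day in 123 genes (0.711%) and lower in 143 (0.826%). Without 1-week uninjured replicate 2 these counts were 80 and 119. With 1 factor of unwanted variation estimated from the housekeeping genes, 444 genes differed, 255 higher and 189 lower at 1-day. Macrophage genes were among those higher at 1-day. Msr1 changed by 1.67 (SE 0.15) at 1-day and 0.28 (SE 0.13) at 1-week (adjusted p of the difference = 9.13e-05), Adgre1 by 0.94 and 0.13 (adjusted p = 0.000305), and the lysosomal protease Ctss by 1.08 and 0.16 (adjusted p = 0.000179). Ccl2, Cxcl5 and Ccr2 were higher at 1-day as well, with 1-week log2 fold changes of 0.63, -0.12 and -0.05 (adjusted p of the differences = 0.00353, 0.00455 and 0.0114). Of the 18 genes of muscle atrophy and denervation 3 had the higher response at 1-day and none the lower. Fbxo32 had a log2 fold change of 1.41 at 1-day and -0.63 at 1-week, and Trim63 1.20 and -0.66 (adjusted p = 0.00428 and 0.00458). Ppp1r27, a muscle phosphatase regulator, had 1.09 and -1.05 (adjusted p = 0.000223).

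The genes whose response was lower at 1-day than at 1-week had their smallest adjusted p in Pamr1, Fbln7, Clec3b and Pla1a. Pamr1, a peptidase-like protein named for its association with muscle regeneration, was downregulated at 1-day, at 13.5, 15.7, 13.5, 12.2 and 16.1 CPM in injured and 31.0, 25.02, 23.6, 22.6 and 22.3 in uninjured joints (log2 fold change -0.81, SE 0.13, adjusted p = 3.01e-05), and had a log2 fold change of 1.88 at 1-week (adjusted p of the difference = 1.56e-08). Clec3b had log2 fold changes of -0.95 at 1-day and 0.94 at 1-week (adjusted p of the difference = 9.55e-06). Among the matrix genes Mmp2, Timp2 and Col6a1 had larger log2 fold changes at 1-week, at 1.66, 1.01 and 2.02 against 0.43, -0.01 and 1.04 at 1-day (adjusted p of the differences = 0.000175, 0.000471 and 0.01). Postn, Col3a1 and Cthrc1 showed no difference that passed the test between the times, with log2 differences of -0.04 (SE 0.22), -0.53 (SE 0.25) and -0.36 (SE 0.22).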

How the data were processed

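Gene counts of whole knee joints were analysed as deposited. Per the labels and the study's methods, the authors aligned poly(A)+ RNA-seq reads with TopHat2 2.0.11 to mm10 and counted reads per gene with featureCounts, giving raw counts of 17313 table rows, already filtered to at least 2 counts in at least 5 libraries. The strand setting is not given in the sources used here, so antisense and overlapping genes cannot be told apart. Rows of 3 repeated names were dropped, leaving 17310 genes, and 24 rows carried names turned into dates and were kept without a name. All 100 columns were matched to samples by name.

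Levels (CPM, counts per 1000000) were computed with TMM factors over the 100 libraries. Differences were tested with edgeR 4.0.16 (R 4.3.3), quasi-likelihood, on the 30 libraries at 1-day with 1 mean per strain and joint, and TMM scaling. Each SE was derived from the F statistic. The difference between strains was an interaction in that fit, and the difference between 1-day and 1-week an interaction among 20 C57BL/6 libraries, whose 1-week log2 fold changes are given. All of these joints belong to 1 experimental batch per the labels. P-values were adjusted by Benjamini-Hochberg over 17310 genes, and genes were called at an adjusted p below 0.05 and more than 1.5-fold. The method was tested on simulated data. No pair of libraries within a group agreed within sampling noise (chi-square per degree of freedom 4.48 or more).

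The members and gene lists were chosen with earlier results of these data known. Genes to name were, per direction, the 12 called genes with the largest fold change at a mean of at least 1 CPM and the 5 with the smallest adjusted p, then up to 4 called members and the member with the highest mean CPM of each list, the 4 with the smallest adjusted p per direction of each interaction, and genes the study named. This gave 222 genes, of which a selection is described, and others are named to complete a count. Some genes that this rule gave are not reported here. Gene positions and promoters are from RefSeq (GRCm38.p6), where 16662 genes had a matching symbol and 551 a single matching synonym. Alternatives were RLE factors, scaling to housekeeping genes, RUVg factors, DESeq2 1.42.0, the likelihood ratio test, other filters and sets of libraries, a replicate block, and each library left out.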

Additional observations from a re-analysis of the deposited data

Results flagged for a closer look

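In 36 of 438 groups of 5 joints examined, 1 joint stood apart from the other 4 by Dixon's 95% criterion. Chance alone passes it in about 1 of 20 groups of independent, normally distributed values. The groups here held CPM of genes measured in the same joints, some with reads in 1 joint only. The count of 36 can therefore not be set against that rate. Uninjured replicate 1 was that joint in 13 of them, uninjured replicate 2 and injured replicate 4 in 6 each, and injured replicate 3 in 5.

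Uninjured replicate 1 was the highest of its group in CPM for Myh4 at 37359.9 against 14764 to 19637, Smox at 264 against 129 to 156, Ccl24 at 7.41 against 3.06 to 4.23 and Eno3 at 2656 against 1137 to 1498. The same joint was also highest for Pgam2 at 1075 against 467 to 639.9, Tpi1 at 509.6 against 245 to 307, Trim63 at 90.3 against 39.0 to 53.2 and Actc1 at 1063 against 241 to 461. The same joint was also highest for Mybph at 87.8 against 29.96 to 36.5, Clec3b at 61.9 against 36.6 to 41.2 and Pdk4 at 77.0 against 31.2 to 36.6. Uninjured replicate 1 was the lowest of its group in CPM for Adgre1 at 52.9 against 62.5 to 66.3. Its summed level of the fast muscle genes was 110682 CPM against 47919.7 to 65866.

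Uninjured replicate 2 was the highest of its group in CPM for C1qc at 40.5 against 32.7 to 33.4, Loxl1 at 33.1 against 18.5 to 22.2, Matn3 at 94.4 against 57.5 to 61.5 and Saa1 at 0.0920 against 0. Uninjured replicate 2 was the lowest of its group in CPM for Tnfrsf11a at 13.1 against 14.6 to 14.9 and Srxn1 at 20.4 against 24.9 to 26.3. Uninjured replicate 3 was the lowest of its group in CPM for Ntrk3 at 1.80 against 3.37 to 3.74. Uninjured replicate 5 was the highest of its group in CPM for Cxcl3 at 0.0849 against 0 and Timp1 at 32.5 against 23.3 to 25.3. Uninjured replicate 4 had the highest total count, 20986027 reads against 9374169 to 11520021.

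Injured replicate 3 was the highest of its group in CPM for Myh4 at 19298 against 11506 to 13518, H2-Aa at 157 against 124 to 132, Clic5 at 92.6 against 68.0 to 69.3 and Pgam2 at 566 against 351 to 407. Its fast muscle sum was 69479 CPM against 44201 to 51263, the highest of the injured joints. Injured replicate 4 was the highest of its group in CPM for Fzd2 at 14.5 against 8.29 to 9.69, Slc2a1 at 16.4 against 9.06 to 11.1, Hsp90b1 at 2234 against 1512 to 1717 and Ier3 at 15.6 against 8.01 to 9.08. The same joint was also highest for Chrng at 0.749 against 0.181 to 0.263. Injured replicate 4 was the lowest of its group in CPM for Smox at 64.6 against 73.6 to 76.9. Injured replicate 2 was the lowest of its group in CPM for Lyz2 at 1675 against 1861 to 1935. Injured replicate 1 was the highest of its group in CPM for Cidea at 1.16 against 0.247 to 0.300.

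The C57BL/6 response at 1-day differed from that of MRL/MpJ in 12 of the genes named in the report, by the interaction test with an adjusted p of 0.000246 to 0.0339. The log2 differences above 0 were 1.23 for Postn, 1.36 for Lrrc17, 0.85 for Phldb2, 1.36 for Cthrc1, 1.16 for Col3a1, 0.82 for Thbs2, 1.38 for Sfrp2 and 1.20 for Has2. Those below 0 were -1.34 for Fasn, -0.68 for Acaca, -1.40 for Hal and -1.53 for Adamtsl2.

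From the STR/ort response it differed in 13 of the genes named in the report, by the interaction test with an adjusted p of 9.5e-08 to 0.0153. The log2 differences above 0 were 2.33 for Col14a1, 2.98 for Angptl1, 2.29 for Gpnmb, 1.72 for Ptn, 1.97 for Col3a1, 0.88 for Prg4, 0.91 for Cxcl16 and 1.18 for C3ar1. Those below 0 were -0.99 for Smox, -2.49 for Hal, -0.95 for Hmox1, -0.87 for Gm20362 and -0.87 for Cxcl14.

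Between the times, as 1-day minus 1-week, the C57BL/6 response differed in 16 of the genes named in the report, by the interaction test with an adjusted p of 1.56e-08 to 0.0114. The log2 differences above 0 were 1.40 for Msr1, 0.82 for Adgre1, 0.93 for Ctss, 2.69 for Ccl2, 2.84 for Cxcl5, 0.74 for Ccr2, 2.06 for Fbxo32, 1.88 for Trim63 and 2.16 for Ppp1r27. Those below 0 were -2.67 for Pamr1, -1.58 for Fbln7, -1.88 for Clec3b, -1.77 for Pla1a, -1.21 for Mmp2, -1.01 for Timp2 and -0.97 for Col6a1.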

How the results depend on the processing

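The 970 genes called between injured and uninjured C57BL/6 joints at 1-day ranged from 901 with DESeq2 to 1256 with RUVg and 2 factors over the settings other than leaving out a library, and between 860 and 970 of the 970 remained called, with the lowest number under scaling to housekeeping genes. Leaving out 1 library gave 707 (without injured replicate 4) to 1147 (without injured replicate 2). Without injured replicate 3 and uninjured replicate 1, an alternative chosen after seeing the data, 1054 genes were called, of which 849 were among the 970. The deposited table was already filtered, so that testing it without a filter changed nothing. The members of the gene lists that were called numbered 171, and 140 to 211 under the alternatives. Without the TMM factors, 682 of the called genes had groups that did not overlap, against 661.

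The difference from MRL/MpJ was the least stable count. Against 55 genes, DESeq2 called 106, the likelihood ratio test 114, RUVg with 2 factors 156 and scaling to housekeeping genes 24. Leaving out 1 library gave 25 to 120. The count was 26, 120 and 29 without C57BL/6 injured replicates 1, 2 and 4, 29 and 36 without uninjured replicates 3 and 4, 25 without MRL/MpJ injured replicate 3, and 27 and 36 without MRL/MpJ uninjured replicates 1 and 3. The 460 genes that differed from STR/ort became 339 to 757 when 1 library was left out, with the highest number without STR/ort injured replicate 5. The 266 genes that differed from 1-week became 444 with RUVg and 1 factor, and 193 to 315 with 1 library left out. The cause of these shifts was not tested.

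No gene named in the text changed direction past the thresholds in the alternatives run. Of the 183 called genes named, 142 were called in every alternative that gave them a value and 41 lost the call in some, between 4 and 29 of them with any 1 library left out. Injured replicate 4 accounted for the 29. Pvalb lost the call in 12 alternatives, Clic5 and Hsp90b1 in 10, and Tfrc, Fstl3 and Myh1 in 9. Without injured replicate 4 the log2 fold changes of Pvalb, Clic5, Hsp90b1, Tfrc and Fstl3 were -0.55, -0.57, 0.48, -0.50 and 0.60. The genes named for the differences from STR/ort and from 1-week kept their calls in the alternatives run, and 7 of 12 named for MRL/MpJ lost theirs in some.

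The labels number the joints 1 to 5 in both groups but do not tie a number to a mouse. Deviations of same-numbered injured and uninjured joints correlated at 0.072 to 0.164, over 0.1 in 3 of 5 pairs. Of the 5 injured joints 3 correlated best with their own number. These values do not settle whether the numbers are pairs. The joints were treated as unpaired because the labels give no pairing. With the replicate number as a block, 957 genes were called in C57BL/6, 60, 456 and 368 differed from MRL/MpJ, STR/ort and 1-week, and 12 of 20 cartilage genes were downregulated.

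Genes with few reads limit precision. Areg and Fosl1 had no read in the uninjured joints, and their fitted fold changes are not given. Totals of 7556012 to 20986027 reads per library set the counting error behind each level.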

Other observations

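Lists drawn up after the values were seen described a few more groups, so their counts are descriptions. Of 16 genes of the lysosome and lipid handling of phagocytes 6 were upregulated and none downregulated, with a median log2 fold change of 0.51. Lgmn, a lysosomal asparaginyl protease, measured 205 to 315 CPM in injured and 91.0 to 118 in uninjured joints (log2 fold change 1.35, SE 0.09, adjusted p = 1.73e-11). Trem2, a lipid-sensing receptor of macrophages and osteoclasts, was at 22.5 to 32.8 against 4.87 to 8.501 CPM (log2 fold change 2.03, SE 0.15, adjusted p = 7.09e-11), and Apoe, a lipid carrier that macrophages secrete, at 824 to 1186 against 497 to 588 CPM (log2 fold change 0.91, SE 0.08, adjusted p = 2.41e-09). Ctss, Ctsl and Gpnmb were the other three, Ctsl under 1.5-fold without injured replicate 4 or uninjured replicate 4. The median of the same 16 genes was 0.23 in MRL/MpJ and 0.16 in STR/ort at 1-day and 0.19 in C57BL/6 at 1-week. Of 10 genes of polyamine metabolism Smox and Amd1, which makes the aminopropyl donor, were downregulated, and of 12 cholesterol synthesis genes none passed both thresholds.

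Further lists gave a handful of genes each. Of 13 genes of neurotrophins and nerve injury 2 were upregulated. Gap43, a protein of growing axons, was at 2.35 to 4.47 against 0.361 to 1.46 CPM (log2 fold change 1.70, SE 0.28, adjusted p = 3.32e-05), and Gfra1, the receptor of the growth factor GDNF, at 16.6 to 22.6 against 9.32 to 14.3 CPM (log2 fold change 0.60, SE 0.13, adjusted p = 0.000888). Gfra1 fell short of 1.5-fold without injured replicate 4 or uninjured replicate 1 (log2 fold changes 0.52 and 0.50). Among 19 clock genes only Npas2, a partner of BMAL1, was upregulated, at 4.21 to 7.56 against 1.66 to 2.65 CPM (log2 fold change 1.27, SE 0.22, adjusted p = 0.000109). That count too is near the 4.26% upregulated over all genes tested. The 17 glucocorticoid and acute-phase genes held Saa1, Pdk4, Saa3 and Angptl4 as upregulated and Orm1 as downregulated members. Pdk4 lost the call with any 1 of 6 libraries left out (adjusted p = 0.059 to 0.139) and Orm1 with any 1 of 3 (log2 fold changes -0.58 to -0.55). Saa1 had 26 reads over the injured and 1 over the uninjured joints. None of 7 dendritic cell genes, 8 mast cell genes, 7 genes of platelets and megakaryocytes or 6 osteoblast markers passed both thresholds. Of 3 skin genes Krt10 was upregulated (log2 fold change 0.73, SE 0.22, adjusted p = 0.0212) but lost the call with any 1 of 4 libraries left out, and of 6 brown fat genes Cidea was downregulated (log2 fold change -1.79, SE 0.49, adjusted p = 0.00928).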
